A study of Mus musculus with 4 samples.

Results

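The 8 chemokine genes described here were Cxcl1, Cxcl2, Ccl2, Ccl7, Cxcl12, Cxcl14, Cxcl16 and Cx3cl1. They were chosen by gene symbol from the 32285 genes measured, with earlier results of these data known. All 8 passed the filter on low counts. The measurements came from Visium spatial transcriptomics, in which each spot of the slide captures the transcripts of the small group of cells above it. The left kidneys were from male WT C57BL/6J mice aged 7 to 8 weeks, with 2 sections of normal control kidney and 2 of kidney removed 24 h after a 30 min bilateral ischemia. The ischemic mice had both renal pedicles clamped and then released, and no operation is described for the normal mice, so clamping and surgery cannot be told apart. The kidneys were snap-frozen, embedded and cut at 10 µm, and the 4 sections lay on different capture areas of the same slide. No source used here ties a section to a mouse, and the study describes technical as well as biological replicate sections, so the p-values measure only the spread between these sections, which may be technical.

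Chemokines are small secreted proteins that guide leukocytes along concentration gradients through G protein-coupled receptors. Inflammatory chemokines are switched on by tissue damage and cytokines, largely through NF-kappa B, whereas homeostatic chemokines are made steadily by stromal and endothelial cells. In the kidney, the straight part of the proximal tubule in the outer stripe of the outer medulla is known as the segment most sensitive to ischemia.

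Depth ranged from 25957128 to 44528078 UMIs per section over 2401 to 2682 tissue spots, with a median of 8656 to 16162 UMIs per spot. Each spot was assigned to cortex, outer stripe, inner stripe, inner medulla or pelvis from marker genes of these zones, none of which is a chemokine. The injury markers Havcr1, encoding KIM-1, and Lcn2, encoding NGAL, fitted the labels: Havcr1 was at 1.17 and 2.14 CPM in normal sections 1 and 2 and at 1287 and 1280 CPM in ischemic sections 1 and 2. Levels given as CPM are counts per 1000000 UMIs divided by the TMM scaling factor of the section or zone sum, so whole-section and zone values are on different scales. The neutrophil marker list stood at 2.52 and 3.3 CPM in normal and 170 and 168 CPM in ischemic sections, where Ly6g and Mmp8 were at 0 in both normal sections. The macrophage and monocyte list stood at 189 and 219 CPM against 162 and 159 CPM, but its 9 genes moved apart, 2 as higher and 5 as lower. Cd68 was at 4.2 and 5 CPM against 21.5 and 22.1 CPM and Chil3 at 0.135 and 0.109 against 19.5 and 17 CPM, whereas Csf1r was at 51.4 and 41.9 against 12.5 and 11.6 CPM.

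In whole sections, 7 of the 8 chemokines rose after ischemia and Cxcl12 fell. The chemokines that draw neutrophils and monocytes, Cxcl1, Cxcl2, Ccl2 and Ccl7, were found in few spots of normal kidney and had the largest fitted changes of the 8. Cxcl14 and Cx3cl1 rose less, and Cxcl16 had the smallest change. Over all 15305 genes tested with edgeR's quasi-likelihood test, 31% passed the adjusted p threshold of 0.05 as higher and 29.7% as lower in ischemic sections. The median log2 change of the 8 chemokines was 1.69, beside 0.04 over all genes tested. Since the 8 were chosen with earlier results of these data known, this median only describes them. Of 28 other chemokine ligands 24 were tested, with a median of -0.08, 8 higher and 11 lower. With library sizes alone as the scaling, the median of all genes moved to 0.31 and the share of called genes that were higher from 51.1% to 67%, and all 8 chemokines kept their direction and passed, with Cxcl12 at -1.03 and Cxcl16 at 0.59. Because a spot holds several cells, fewer cells of a type and less RNA per cell cannot be told apart.

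**Figure D1:**
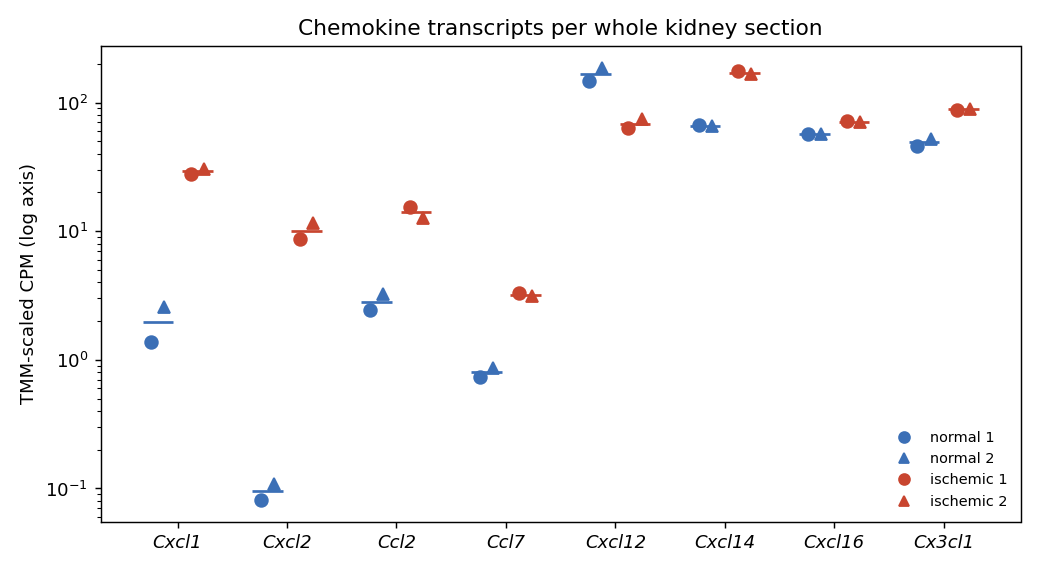
Each point is the TMM-scaled CPM (log axis) of a chemokine in 1 whole kidney section, with blue for normal and red for ischemic sections, circles for section 1, triangles for section 2 and lines for the mean of 2 sections. For all 8 genes the ischemic sections lie outside the range of the normal sections, above it for 7 genes and below it for Cxcl12. Of all 15305 genes tested 31% passed as higher and 29.7% as lower, and the share of all genes without overlap was not counted.

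Cxcl1 and Cxcl2 encode closely related ligands of the receptor Cxcr2 that recruit neutrophils. The genes lie on the same strand of chromosome 5, Cxcl1 at chr5:90891241-90893115 and Cxcl2 at chr5:90903871-90905938 of GRCm38, with 10755 bases between them. The 150 bases before the RefSeq start site of each are shown because they share the same letters, here in capitals, which match the kappa B motif bound by NF-kappa B on both strands. The stretches are chr5:90891095-90891244 for Cxcl1 and chr5:90903749-90903898 for Cxcl2, plus strand, GRCm38.p6.
Cxcl1: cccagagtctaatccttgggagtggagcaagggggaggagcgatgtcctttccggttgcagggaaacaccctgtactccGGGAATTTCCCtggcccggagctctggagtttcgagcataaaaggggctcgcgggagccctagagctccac
Cxcl2: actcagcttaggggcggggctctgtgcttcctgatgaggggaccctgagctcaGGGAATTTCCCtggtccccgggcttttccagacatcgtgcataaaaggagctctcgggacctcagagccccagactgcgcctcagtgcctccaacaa
Relative to the start site the match began at -71 in Cxcl1 and at -97 in Cxcl2. RefSeq promoters, from 250 bases before to 50 after the start site, were at hand for 5 of the 8 genes, Cxcl1, Cxcl2, Cxcl12, Cxcl14 and Cx3cl1, and 2 of these held a kappa B match. Of all 32851 promoters of this length, 8.46% held the motif on either strand. TATAAA was found in Cx3cl1 among the 5 and in 13.6% of all promoters, and TGANTCA, the AP-1 motif, in none of the 5 and 7.81% of all. Such matches describe letters in a window and show no binding.

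Cxcl1 was at 1.38 and 2.57 CPM in normal sections 1 and 2 and at 27.8 and 30.7 CPM in ischemic sections 1 and 2, from 51, 71, 943 and 879 UMIs. Both ischemic sections were far above both normal sections. The log2 change was 3.93 ± 0.21 (SE, n = 2 and 2 sections, edgeR adjusted p = 7.64e-07). The share of spots with at least 1 Cxcl1 UMI was 1.72% and 2.27% in the normal sections against 24% and 21.9% after ischemia. With each spot thinned to 2000 UMIs, those shares were 0.273%, 0.434%, 6.49% and 5.58%, so the order held at equal depth.

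Cxcl2 had 3 UMIs in each normal section, or 0.0813 and 0.109 CPM, and 293 and 331 UMIs, or 8.62 and 11.6 CPM, in the ischemic sections. The pooled ratio of ischemic to normal was 107, with a 95% counting interval of 49 to 293, and the fitted log2 change was 6.70 ± 0.33 (SE, edgeR adjusted p = 5.74e-07). The width of this interval comes from the 6 normal UMIs. The SE is derived from the test statistic and does not cover all of that counting error. Spots with Cxcl2 made up 0.115% and 0.112% of normal and 9.08% and 8.57% of ischemic sections.

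Ccl2 and Ccl7 encode monocyte chemoattractants, both ligands of Ccr2, and Ccl7 also acts on Ccr1 and Ccr3. They are neighbours on the plus strand of chromosome 11, at chr11:82035571-82037453 and chr11:82045712-82047525, with 8258 bases between them. Ccl2 was at 2.44 and 3.22 CPM in normal and 15.5 and 12.6 CPM in ischemic sections. Its ischemic sections lay above the normal ones, with a log2 change of 2.33 ± 0.18 (SE, edgeR adjusted p = 6.75e-06). In the normal sections Ccl2 was concentrated, in that 1 spot of normal section 1 held 14 of its 90 UMIs and the richest 1% of spots held 80% and 77.5% of all Ccl2 UMIs. In the ischemic sections the richest 1% of spots held 30.9% and 29%, and the share of spots with Ccl2 went from 1.68% and 1.75% to 12.1% and 9.45%.

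Ccl7 had 27 and 24 UMIs in the normal sections against 112 and 89 after ischemia. These were 0.732 and 0.869 CPM against 3.3 and 3.11 CPM, and the groups did not overlap. The log2 change was 2.01 ± 0.25 (SE, edgeR adjusted p = 0.000122).

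Cxcl12, also called SDF-1, is a homeostatic chemokine of stromal and endothelial cells that acts through Cxcr4 and is scavenged by Ackr3. Its gene lies at chr6:117168535-117181367 on the plus strand. It was at 147 and 187 CPM in normal and fell to 63.2 and 74.2 CPM in ischemic sections. Both ischemic sections were below both normal ones, and the log2 change was -1.28 ± 0.15 (SE, edgeR adjusted p = 7.42e-05). Spots with Cxcl12 made up 74% and 65.7% of normal and 45.7% and 44.2% of ischemic sections, and 21.7% and 31.3% against 13.7% and 16.5% after thinning.

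Cxcl14, a chemokine of epithelia and stroma whose receptor is not settled, lies at chr13:56288643-56296551 on the minus strand. It was at 66.3 and 66.2 CPM in normal and 176 and 167 CPM in ischemic sections. The groups lay far apart beside the spread within them, and the log2 change was 1.37 ± 0.11 (SE, edgeR adjusted p = 8.14e-06). The share of spots with Cxcl14 was 48.9% and 36.8% against 58.3% and 51.7%, and 10.3% and 12% against 25.4% and 24.3% after thinning to equal depth. The highest single spot went from 10 and 14 UMIs to 34 and 27.

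Cxcl16 and Cx3cl1, or fractalkine, are made as membrane proteins with a chemokine domain on a stalk and are released by the proteases Adam10 and Adam17. Cxcl16 binds Cxcr6 and lies at chr11:70453983-70459984 on the minus strand. It was at 57.0 and 56.5 CPM in normal and 71.3 and 71.0 CPM in ischemic sections. The groups did not overlap, but the change was small, with a log2 value of 0.33 ± 0.09 (SE, edgeR adjusted p = 0.0145). It missed the threshold with DESeq2, at an adjusted p of 0.073, and without ischemic section 1 (0.169) or ischemic section 2 (0.163) in edgeR.

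Cx3cl1 binds Cx3cr1 on monocytes and macrophages and lies at chr8:94772009-94782427 on the plus strand. It was at 46.3 and 51.9 CPM in normal and 87.8 and 89.4 CPM in ischemic sections. The groups did not overlap, and the log2 change was 0.85 ± 0.10 (SE, edgeR adjusted p = 0.000115). Spots with Cx3cl1 made up 45.8% and 37.5% of normal and 65.5% and 58.1% of ischemic sections.

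In the outer stripe all 8 chemokines passed the test. There, 7 chemokines rose and Cxcl12 fell, where 27.5% of the 14172 genes tested passed as higher and 29.6% as lower. In cortex 4 rose and 1 fell, beside 20.3% and 20% of all genes. In inner stripe 6 rose and 1 fell, beside 22.2% and 26%. The other, Ccl7 at 1.60 (edgeR adjusted p = 0.066), passed there with library sizes alone (2.00, 0.0252), no filter (1.68, 0.0269), zones from the spot alone (2.01, 0.00406), zones without the marker Cryab (1.88, 0.0309) or inner stripe and inner medulla merged (1.69, 0.0106). In inner medulla 4 rose and 1 fell, beside 13.9% and 21.2%. In pelvis 4 rose and 1 fell, beside 10.7% and 14.5%. Cxcl2, Cx3cl1 and Cxcl12 passed the test in each of the 5 zones, the first 2 as higher and Cxcl12 as lower. With zones from the spot alone, without its neighbours, the pelvis calls of Cxcl2 (3.64, edgeR adjusted p = 0.108) and Cx3cl1 (0.52, 0.0916) were lost. In the ischemic sections inner stripe and inner medulla spots interleaved, and Slc14a2, an inner medulla marker, was at 546 and 458 CPM in inner stripe against 618 and 548 CPM in inner medulla. The values of these 2 zones are therefore not sharply separated from each other. Pelvis was less secure still, since zones from the spot alone kept 28.6% and 28.7% of its ischemic spots. Zone markers also moved. In outer stripe every gene of its list was lower after ischemia, such as Slc7a13 at 1214 and 1057 against 28 and 30.8 CPM. Cryab, an inner medulla marker, was at 959 and 759 against 6149 and 6164 CPM in outer stripe. Zones from the spot alone kept 61.2% and 62% of the ischemic outer stripe spots, and zones without Cryab 100%. In pelvis Upk1a was at 830 and 985 CPM in normal and 18.7 and 34.1 in ischemic sections, but Krt5 at 32.8 and 60.9 against 59 and 92.4. In inner medulla Akr1b3 was at 2122 and 1166 against 110 and 161 CPM, but Slc14a2 was higher. Whether a zone held the same tissue in both conditions was not tested.

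**Figure D2:**
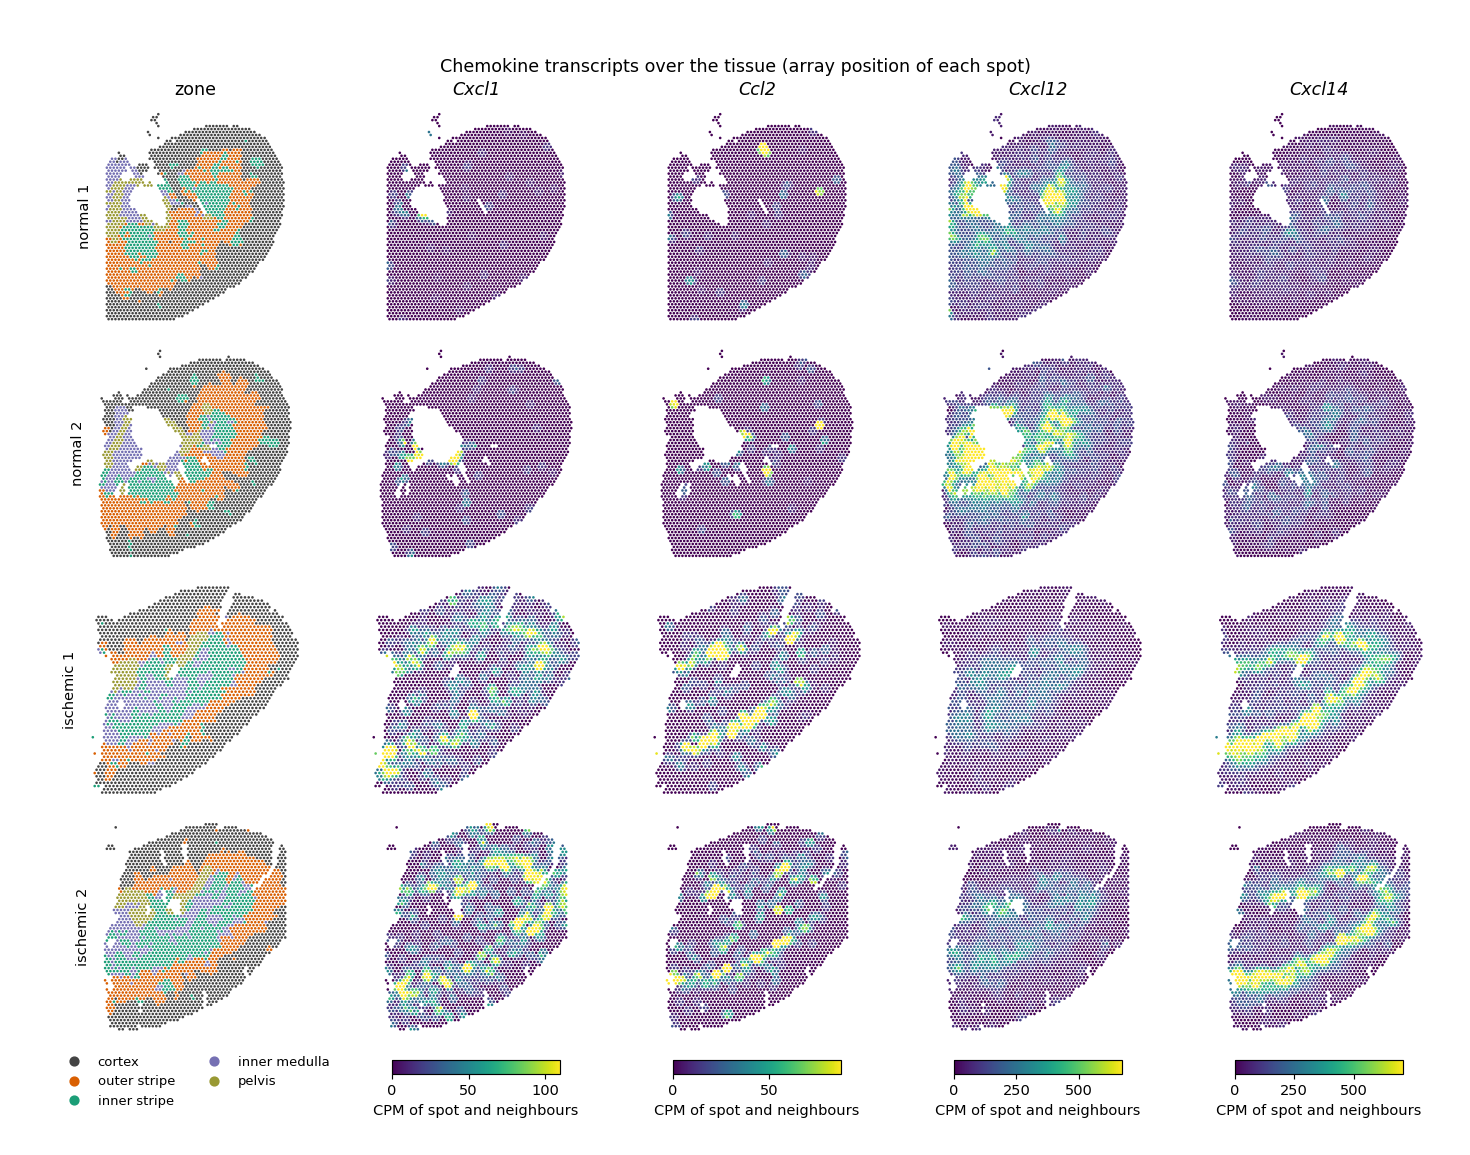
Each dot is 1 spot at its array position, coloured by zone in the first column and, in the others, by plain CPM of Cxcl1, Ccl2, Cxcl12 or Cxcl14 over the spot and its up to 6 neighbours, with 1 colour scale per gene, cut at its 98th percentile. In both ischemic sections the high spots of Cxcl1 follow the ring of outer stripe, and Cxcl12 is high in the inner zones of the normal sections and low in the ischemic cortex. Ccl2 and Cxcl14 are high in the outer stripe and also in inner zones. In outer stripe, inner medulla and pelvis, plain CPM of Ccl2 was 29.9, 29.3 and 29.1 in ischemic section 1 and 21.4, 19.6 and 8.75 in ischemic section 2. That of Cxcl14 was 312, 297 and 381 in ischemic section 1 and 300, 245 and 261 in ischemic section 2.

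Cxcl1 was at 0.873 and 0.895 CPM in the normal outer stripe and at 55.8 and 64.0 CPM in the ischemic outer stripe, from 9, 7, 542 and 528 UMIs. This was a log2 change of 6.05 ± 0.27 (SE, edgeR adjusted p = 2.00e-12). The outer stripe held 17.6% and 9.86% of all Cxcl1 UMIs in normal kidney. After ischemia it held 57.5% and 60.1%, in 25.9% and 26.1% of the spots. In cortex Cxcl1 was at 1.23 and 2.19 against 18.6 and 21.0 CPM, a log2 change of 3.58 ± 0.24 (SE, edgeR adjusted p = 1.11e-09).

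The normal inner medulla held more Cxcl1 than the normal cortex, with 5.65 and 14.2 CPM, and its ischemic values of 18.5 and 14.0 CPM overlapped these. The log2 value there was 0.60 ± 0.34 (SE, edgeR adjusted p = 0.181). It passed at 1.82 with zones from the spot alone (adjusted p = 0.00148) and at 1.53 without normal section 2 (0.0321), so whether Cxcl1 was higher there depends on the setting. In normal pelvis Cxcl1 was at 8.37 and 8.05 CPM and in ischemic pelvis at 33.3 and 23.6 CPM, a call at 1.79 that was lost with zones from the spot alone (adjusted p = 0.234) and without ischemic section 1 (1.53, 0.0546). Before injury the level of Cxcl1 was thus higher in inner medulla and pelvis than in cortex, but not in inner stripe, at 1.08 and 1.03 CPM. The 5% of normal spots richest in the pelvis marker list had 13.6 and 8.58 times the Cxcl1 CPM of the rest. The pelvis marker list itself was lower in the ischemic sections, at 32.2 and 58.5 against 244 and 531 CPM, and its part in the Cxcl1 values of the inner zones was not tested.

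Cxcl2 in the outer stripe came to 2 and 0 UMIs in the normal and 156 and 203 UMIs in the ischemic sections, or 16.1 and 24.6 CPM in the latter. The pooled ratio was 181, with a counting interval of 49.8 to 1503. In the other zones the normal sections held 0 or 1 UMI each, and the ischemic levels were 3.41 and 3.35 CPM in cortex, 8.76 and 11.2 CPM in inner stripe, 11.9 and 7.37 CPM in inner medulla and 8.33 and 12.5 CPM in pelvis. Within the ischemic sections Cxcl2 was thus lowest in cortex and highest in outer stripe in both sections.

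Ccl2 in the outer stripe was at 2.04 and 3.83 CPM in normal and 31.4 and 22.5 CPM in ischemic sections, a log2 change of 3.24 ± 0.39 (SE, edgeR adjusted p = 8.07e-07). In cortex it was at 3.29 and 1.81 against 4.77 and 4.50 CPM, with a log2 value of 0.80 ± 0.44 that missed the threshold (adjusted p = 0.161) and passed it without a filter (0.79, adjusted p = 0.0132) or without normal section 1 (1.35, 0.0221). In inner medulla it was at 0.942 and 2.96 against 24.2 and 16.2 CPM, from only 1 and 5 normal UMIs, and passed with a log2 change of 3.21 ± 0.76 (SE, edgeR adjusted p = 0.00288). The inner stripe call, at 1.77 ± 0.52 (SE, edgeR adjusted p = 0.00839), was lost without ischemic section 2 (1.39, adjusted p = 0.0937).

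Ccl7 in the outer stripe was at 0.291 and 0.383 CPM in normal and 5.15 and 5.70 CPM in ischemic sections, a log2 change of 3.95 ± 0.55 (SE, edgeR adjusted p = 5.07e-06). In pelvis its values overlapped, at 9.07 and 5.17 CPM in normal and 6.25 and 1.97 CPM in ischemic sections, with a log2 value of -0.78 ± 0.62 (SE, edgeR adjusted p = 0.389). The normal outer stripe held 3 Ccl7 UMIs per section and the normal pelvis 13 and 9, so the zone values of Ccl7 rest on few UMIs. Its call in cortex, at 1.70 ± 0.57 (SE, edgeR adjusted p = 0.0235), was lost without normal section 1 (0.92, adjusted p = 0.224), ischemic section 1 (1.22, 0.325) or ischemic section 2 (2.00, 0.0613).

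**Figure D3:**
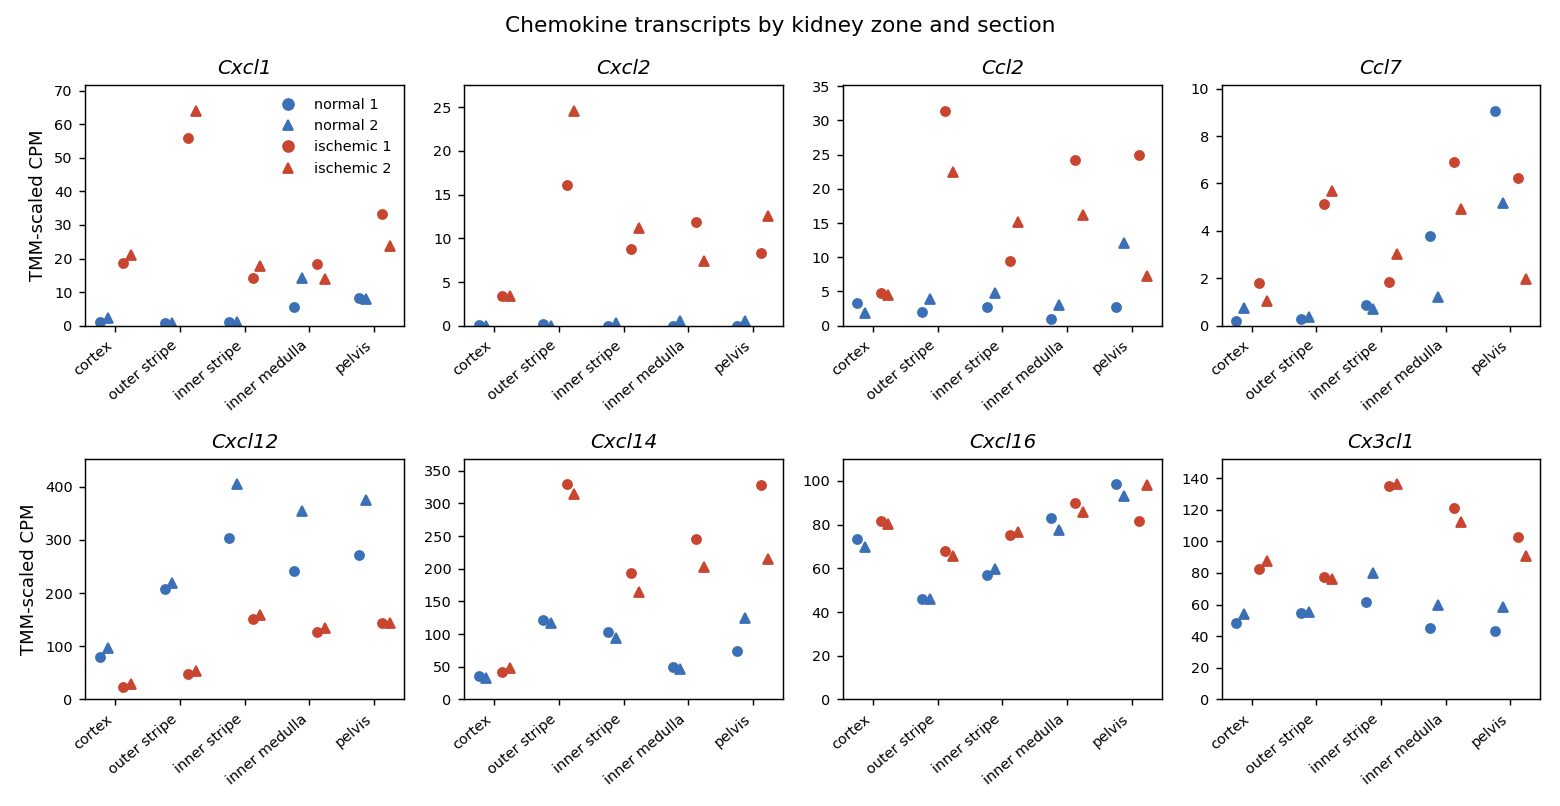
TMM-scaled CPM of each chemokine by zone, with 1 point per section, blue for normal and red for ischemic, circles for section 1 and triangles for section 2, and a separate axis from 0 for each gene. The ischemic outer stripe stands highest of the ischemic zones for Cxcl1 and Cxcl2 in both sections, and all normal values of Cxcl12 lie above the ischemic values of the same zone. For Cxcl14 the outer stripe is highest in ischemic section 2. In ischemic section 1 it is level with pelvis, at 329 and 328 CPM, and lower in plain CPM, at 312 against 381.

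Cxcl12 fell in every zone. In the outer stripe it went from 208 and 218 CPM to 47.0 and 53.5 CPM, a log2 change of -2.08 ± 0.20 (SE, edgeR adjusted p = 4.71e-08), and in cortex from 80.1 and 97.4 CPM to 22.8 and 29.3 CPM, a log2 change of -1.77 ± 0.20 (SE, edgeR adjusted p = 1.18e-06). In inner stripe, where it was highest, it went from 303 and 404 CPM to 152 and 158 CPM. Cortex was lowest in all 4 sections, and the share of Cxcl12 UMIs in the outer stripe went from 39.5% and 33.1% to 21.2% and 20.7%. The share of spots in the outer stripe went from 30.7% and 30.6% to 25.9% and 26.1%.

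Cxcl14 was at 121 and 117 CPM in the normal outer stripe, on this scale the highest among cortex, the stripes and inner medulla. In plain CPM, without the scaling factor, the normal inner stripe was higher, at 85 and 104 against 80.1 and 91.4. In the outer stripe Cxcl14 rose to 329 and 315 CPM, a log2 change of 1.44 ± 0.20 (SE, edgeR adjusted p = 3.85e-06). The outer stripe held 50.9% and 49.9% of its UMIs in normal and 53.5% and 54.5% in ischemic sections. In cortex it was at 36.3 and 33.2 against 41.3 and 47.4 CPM, with a log2 value of 0.35 ± 0.20 (SE, edgeR adjusted p = 0.18) that was 0.57 and passed with library sizes alone (adjusted p = 0.0439). In inner medulla it was at 49.0 and 46.2 CPM in normal and 245 and 202 CPM in ischemic sections, with a log2 change of 2.23 ± 0.23 (SE, edgeR adjusted p = 6.35e-07).

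Cxcl16 passed the test in the outer and inner stripe. In the outer stripe it rose from 45.8 and 45.9 to 68.0 and 65.7 CPM, a log2 change of 0.54 ± 0.11 (SE, edgeR adjusted p = 0.000406). In cortex it was at 73.6 and 70.0 against 81.5 and 80.3 CPM, with a log2 value of 0.17 ± 0.11 (SE, edgeR adjusted p = 0.229) that was 0.39 and passed with library sizes alone (adjusted p = 0.0477). In pelvis its values overlapped, with a log2 value of -0.09 that was 0.02 with library sizes alone. The inner stripe call, at 0.38, was lost without ischemic section 1 (adjusted p = 0.115), without ischemic section 2 (0.151) or without spots near a zone boundary (0.35, 0.0633).

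Cx3cl1 rose in each zone, with log2 changes from 0.48 ± 0.15 in the outer stripe (SE, edgeR adjusted p = 0.00868) to 1.13 ± 0.17 in inner medulla (SE, edgeR adjusted p = 5.27e-05). Its highest ischemic level was in inner stripe, at 135 and 136 CPM against 61.4 and 80.3 CPM in normal sections. The share of its UMIs in the outer stripe went from 33.2% and 30.2% to 25.2% and 24.6%, while the share of spots in that zone went from 30.7% and 30.6% to 25.9% and 26.1%. The outer stripe call was lost without ischemic section 1 (0.48, adjusted p = 0.127) or ischemic section 2 (0.50, adjusted p = 0.114), that in pelvis without ischemic section 1 (0.83, adjusted p = 0.078) and that in cortex without ischemic section 2 (0.71, adjusted p = 0.0538).

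**Figure D4:**
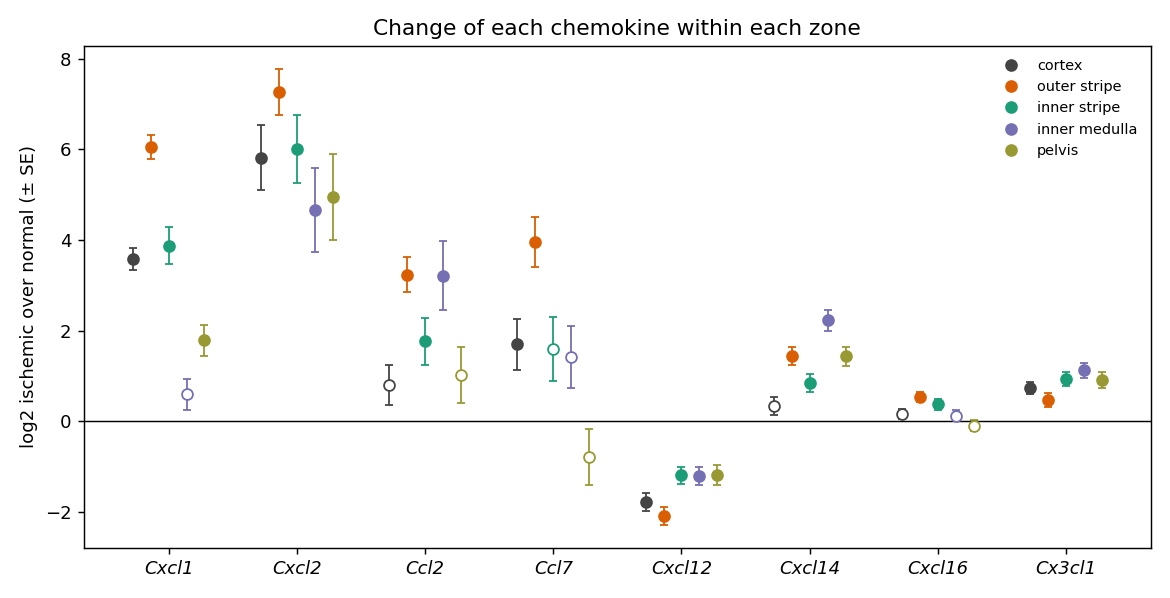
Fitted log2 change (ischemic over normal) of each chemokine in each zone, with filled circles for an edgeR adjusted p under 0.05. Bars are ± SE derived from the edgeR test statistic, which can understate the counting error where normal UMIs are few. Cxcl1 spans 0.60 in inner medulla to 6.05 in outer stripe, Cxcl12 lies below 0 in all 5 zones, and the Cxcl2 values depend on normal zones with 0 to 2 UMIs.

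Whether a change differed between zones was tested as the change in a zone minus the change in cortex. For the outer stripe, 3 of the 8 chemokines passed as higher and none as lower, beside 4.41% and 7.35% of all genes. These were Cxcl1, with a difference of 2.47 ± 0.46 on the log2 scale (SE, edgeR adjusted p = 0.00192), Ccl2 with 2.44 ± 0.61 (0.0138) and Cxcl14 with 1.09 ± 0.28 (0.0152). All 3 differences kept their direction without any 1 section. They missed the threshold without ischemic section 1, with adjusted p of 0.0875, 0.272 and 0.34, and without ischemic section 2, with 0.073, 0.139 and 0.2, and that of Ccl2 also without normal section 1 (1.57, adjusted p = 0.113).

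For the inner medulla, Cxcl14 passed as higher than in cortex, with 1.88 ± 0.31 (SE, edgeR adjusted p = 0.00064), and Cxcl1 as lower, with -2.98 ± 0.46 (adjusted p = 0.00046), beside 1.64% and 5.65% of all genes. The Cxcl14 difference missed the threshold without ischemic section 1 (1.65, adjusted p = 0.0935). The Cxcl1 difference was -1.91 with zones from the spot alone (adjusted p = 0.0866), and with inner stripe and inner medulla merged it was -1.46 (adjusted p = 0.0533). For the inner stripe, none of the 8 passed in either direction in edgeR, beside 2.75% and 8.38% of all genes, and 1, Cxcl12, was under 0.05 before adjustment, with 0.58 ± 0.28. DESeq2 also called none of the 8 there. The zones of a section share its tissue, and the model treats their sums as separate samples.

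The cell types that lay where a chemokine was high were described by the 5% of spots of a section richest in a marker list, against the rest of the section. Neutrophil-rich spots of the ischemic sections had 8.12 and 6.95 times the Ccl2 CPM of other spots, 4.54 and 7.11 times the Ccl7, 4.61 and 4.17 times the Cxcl2, 2.47 and 2.90 times the Cxcl14 and 1.60 and 1.51 times the Cxcl1. Macrophage-rich spots had 5.55 and 7.18 times the Ccl2 and 6.83 and 6.60 times the Ccl7, but 0.636 and 0.919 times the Cxcl1. Spots rich in the injured tubule list, Havcr1, Lcn2 and Krt20, had 0.473 and 0.25 times the Cxcl1 and 0.511 and 0.297 times the Cxcl14. Their Cxcl16 was 1.38 and 1.57 times and their Cx3cl1 1.60 and 1.37 times that of other spots. Of these injured tubule spots 0% lay in the outer stripe and 0% in cortex in either section, so they do not describe injured tubules of those zones. The counts of a list were summed, and Lcn2, at a mean of 3039 CPM in whole ischemic sections, outweighed Havcr1 at 1283 and Krt20 at 213. Since 63.9% and 61.2% of the neutrophil-rich spots lay in the outer stripe, the same ratios were taken within that zone.

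Within the ischemic outer stripe, Ccl2 and Cxcl1 parted. The neutrophil-rich spots, 31 and 34 in number, had 178 and 77.0 plain CPM of Ccl2 against 24.9 and 19.2 in the rest, ratios of 7.14 and 4.02. The same spots had 30.1 and 29.6 plain CPM of Cxcl1 against 53.9 and 62.1, ratios of 0.559 and 0.477. In macrophage-rich spots the ratios were 7.56 and 6.82 for Ccl2, 6.98 and 4.46 for Ccl7, and 0.418 and 0.649 for Cxcl1. For neutrophil-rich spots 3 more ratios were smaller within the zone than over the section, at 3.31 and 2.30 for Ccl7, 2.70 and 1.28 for Cxcl2 and 1.51 and 1.75 for Cxcl14. Those of Cxcl12, Cxcl16 and Cx3cl1 were larger, with Cxcl12 at 2.40 and 2.40 within the zone against 1.21 and 1.13 over the section. In spots rich in the injured tubule list the ratios within the zone were 0.889 and 0.951 for Cxcl1 and 1.85 and 1.84 for Cxcl14. The Cxcl1 figures in neutrophil-rich and macrophage-rich spots rest on 8 to 11 UMIs per section. Those of Ccl7 rest on 5 and 4 UMIs in neutrophil-rich and 10 and 6 in macrophage-rich spots, and those of Cxcl2 in neutrophil-rich spots on 13 and 10. The errors of all these figures are wide.

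**Figure D5:**
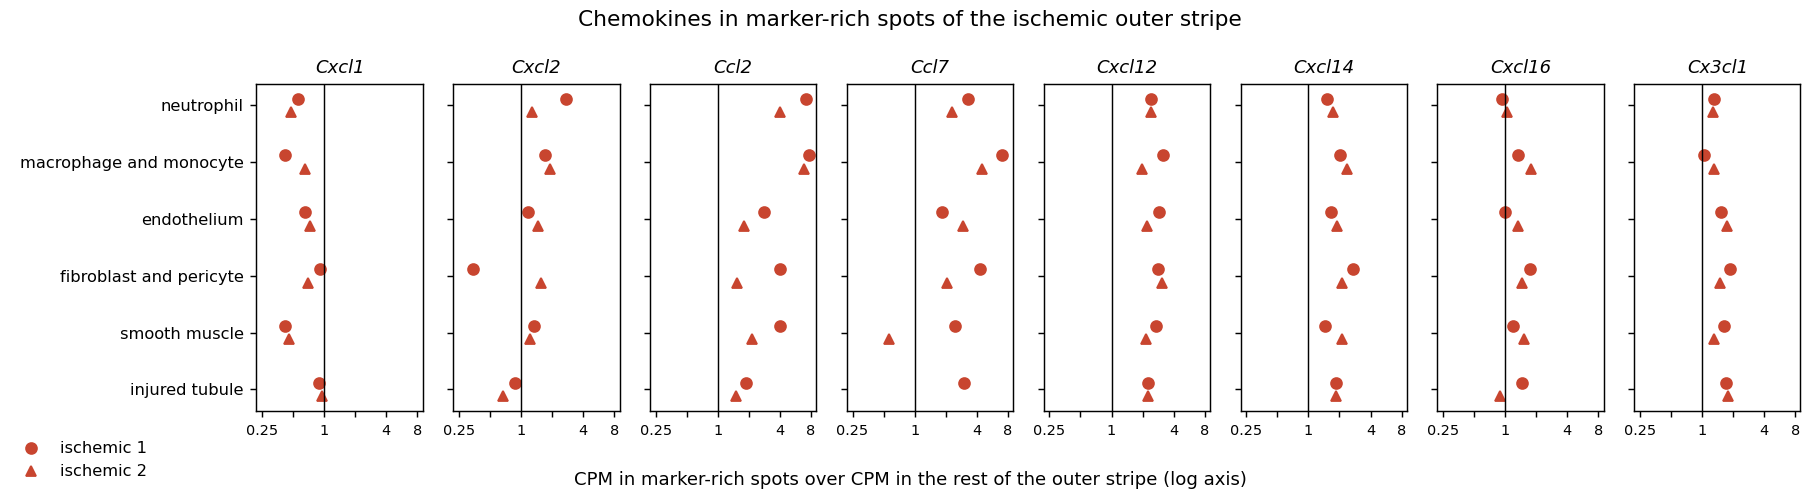
For outer stripe spots of the ischemic sections, plain CPM of each chemokine in the 5% of spots richest in a marker list, divided by that in the rest (log axis, 1 point per section, circles for section 1 and triangles for section 2). Ccl2 lies right of 1 for all 6 lists and Cxcl1 left of 1 for all 6, and 1 Ccl7 value is missing because the rich spots held 0 UMIs.

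Ccl2 and Ccl7 also shared spots. In the ischemic outer stripe, Ccl7 was at 16.7 and 16.4 plain CPM in spots with a Ccl2 UMI and at 1.40 and 2.84 in spots without. Ccl2 was at 184 and 60.2 in spots with Ccl7 and at 20.7 and 19.6 in spots without. By contrast Ccl7 was at 2.83 and 4.15 in spots with Cxcl1 and at 7.12 and 6.68 in spots without, and Ccl2 at 25.5 and 18.5 against 34.6 and 24.4. Cxcl1 and Cxcl2 went together more weakly, with Cxcl1 at 65.6 and 107 in spots with Cxcl2 and 50 and 48.4 in spots without. The ischemic outer stripe held 50 and 47 Ccl7 UMIs, so the Ccl7 values rest on few UMIs.

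Cxcl12 was higher in spots rich in endothelial, stromal or macrophage markers, but also in spots rich in some other lists. Spots rich in the endothelium list had 3.43 and 3.14 times the Cxcl12 of other spots in normal and 2.86 and 2.75 times in ischemic sections, and those rich in the fibroblast and pericyte list 2.98, 2.85, 3.16 and 3.52 times. Macrophage-rich spots had 3.19, 3.30, 2.56 and 2.44 times. Spots rich in the pelvis list had 2.57, 2.63, 2.67 and 2.52 times and those rich in the injured tubule list 2.94, 2.02, 2.34 and 2.05 times. Within the ischemic outer stripe the Cxcl12 ratios of all 6 lists taken there lay from 1.99 to 3.13, so Cxcl12 was not tied to 1 list. The endothelium list as a whole was at 399 and 450 CPM in normal and 493 and 525 CPM in ischemic sections, and the fibroblast and pericyte list at 173 and 234 against 302 and 311 CPM. Of the 6 endothelium genes 3 were higher and 1, Kdr, was lower, at -0.44 (edgeR adjusted p = 0.00304), and of the 5 fibroblast and pericyte genes 4 were higher and 1, Dcn, was lower, at -2.44 (1.79e-06). In cortex 2 of the 6 endothelium genes were lower and none higher in edgeR. The part of these lists in the Cxcl12 change was not tested. Cxcl14 in ischemic sections was higher in fibroblast-rich spots, 2.85 and 2.40 times, and in smooth muscle-rich spots, 2.65 and 3.12 times. Of the latter spots 58% and 55.8% lay in the outer stripe, and within that zone the ratios were 1.44 and 2.10 for smooth muscle-rich and 2.68 and 2.10 for fibroblast-rich spots. Cxcl16 was higher in podocyte-rich spots in all 4 sections, by 1.95, 1.67, 1.55 and 1.41 times, and also in fibroblast-rich spots, by 2.32, 1.98, 1.33 and 1.40 times, and endothelium-rich spots, by 2.00, 2.24, 1.20 and 1.48 times. Cx3cl1 was higher in endothelium-rich spots, by 1.93, 2.31, 1.55 and 1.44 times, and in fibroblast-rich spots, by 1.58, 1.39, 1.74 and 1.67 times. Neither gene was thus tied to 1 marker list.

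Of 10 receptors of the 8 chemokines, 7 were tested, 2 passed as higher and 2 as lower, with a median log2 value of 0.22, beside 31% and 29.7% of all genes. Ccr1, a receptor of Ccl7, had 13 and 11 UMIs in normal and 181 and 178 in ischemic sections, a log2 change of 3.94 ± 0.26 (SE, edgeR adjusted p = 2.62e-06). Cxcr2, the neutrophil receptor of Cxcl1 and Cxcl2, had 1 and 3 against 24 and 31 UMIs, a log2 change of 3.75 ± 0.59 (adjusted p = 0.000543). The rise of both went with that of the neutrophil list, of which 7 of 7 tested genes rose, and its part was not tested.

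Cxcr6, the receptor of Cxcl16 on T and NK cells, went the other way, with 32 and 50 UMIs in normal and 2 and 0 in ischemic sections (adjusted p = 0.000363). The T cell list fell alongside it, at 16.7 and 28.1 CPM against 2.12 and 2.27 CPM, with 5 of 5 genes lower, and its part in the Cxcr6 change was not tested. Ccr2, the monocyte receptor of Ccl2, was at 2.55 and 4.2 CPM in normal and 3.59 and 3.8 CPM in ischemic sections, which overlapped (log2 0.15 ± 0.25, edgeR adjusted p = 0.63). Cxcr4 and Cx3cr1 also missed the threshold, at 0.40 (adjusted p = 0.323) and 0.22 (0.545). Ackr3 was lower, at -0.38 ± 0.10 (SE, edgeR adjusted p = 0.0079), but not when only library sizes were scaled (-0.12, adjusted p = 0.522). Cxcr1 and Ccr3 had no UMI in any section and Ackr1 at most 4, and these 3 were not tested.

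Of 28 other chemokine ligands 24 were tested, 8 rose and 11 fell, with a median log2 value of -0.08, beside 31% and 29.7% of all genes. Cxcl5 and Cxcl3, further ligands of Cxcr2, had no UMI in either normal section and 96 and 95, and 25 and 28, in the ischemic sections. Against a floor of 3 UMIs over both normal sections, Cxcl5 was at least 66.0-fold and Cxcl3 at least 18.4-fold higher. Cxcl17, a mucosal chemokine, went from 0 and 1 to 120 and 100 UMIs. Cxcl9, an interferon-gamma-induced T cell attractant, had 218 and 329 UMIs in the normal sections against 2 and 1, and Xcl1, made by T and NK cells, 26 and 36 against 1 and 1.

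Of 13 other chemokine receptors 6 were tested, none rose and 3 fell in edgeR, and these were Ccr7, Xcr1 and Cxcr3. Ccr7, a homing receptor of T cells and dendritic cells, had 38 and 71 UMIs in normal and 0 and 1 in ischemic sections.

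Of 19 genes that act upstream of chemokines or cleave them, 17 were tested, 16 rose and 1 fell, with a median log2 value of 0.95, beside 31% and 29.7% of all genes and their median of 0.04. Il6 had no UMI in either normal section and 71 and 78 in the ischemic sections, at least 51.7-fold higher against the floor of 3 UMIs. Among NF-kappa B genes Nfkbiz rose by a log2 value of 2.12 ± 0.15 (SE, edgeR adjusted p = 3.97e-06), Nfkb2 by 1.69 ± 0.10 (1.22e-06) and Relb by 1.52 ± 0.20 (0.00018). Dpp4, a protease that trims and inactivates Cxcl12, was at 23.2 and 19.3 CPM in normal and 8.86 and 7.54 CPM in ischemic sections, a log2 change of -1.37 ± 0.13 (SE, edgeR adjusted p = 2.73e-05). Adam10 and Adam17, which release Cxcl16 and Cx3cl1 from the membrane, were slightly higher, at 0.38 (adjusted p = 0.00618) and 0.42 (0.00715).

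For 6 of the chemokines the 3 most alike of 8886 genes are given, found by Pearson correlation of log2(CPM + 1) over the 20 section-zone sums, which share sections, depth and the difference between conditions, so the values are a description only. They were Cdkn1a, Flnc and Jpt1 for Cxcl1 (0.953 to 0.959), Nop58, Ranbp1 and Rras2 for Cxcl2 (0.972 to 0.981), Ppan, Rbm17 and Fubp3 for Ccl2 (0.904 to 0.913) and Hspb1, Cdk17 and Tmbim1 for Ccl7 (0.877 to 0.895). For Cxcl16 they were Cav2, Abcc4 and Cd9 (0.900 to 0.942), and for Cx3cl1 Birc2, Hesx1 and Mt1 (0.947 to 0.952). No gene was among the 3 of more than 1 of these 6 chemokines.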

How the data were processed

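The authors ran Space Ranger 1.3.0 (mm10 per the submitters' processing notes) and deposited, without normalization, raw counts of UMIs by spot and gene for 2 normal and 2 ischemic sections. The sources used here name no gene annotation. Coordinates are GENCODE M21 on GRCm38, and no count depends on them. The 10312 tissue spots were grouped by section from the labels. The 8 genes and all gene lists were chosen with earlier results of these data known.

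Counts were summed per section, and per zone of a section where it had 20 spots or more. The quasi-likelihood test of edgeR 4.0.16 in R 4.3.3 was used with TMM factors and filterByExpr. P-values were adjusted by Benjamini-Hochberg over all genes tested, with a threshold of 0.05. Each SE given with an edgeR fit is the absolute log2 change divided by the square root of the F statistic of the test. It is not a value that edgeR reports, and with few normal UMIs it can understate the counting error. The zone model had a group per condition and zone. A spot took the zone whose marker list scored highest over it and its up to 6 neighbours. Pelvis needed at least 10 counts of its list and a rank in the top 5% of the section.

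The genes named were the 8 chemokines, their receptors, Havcr1 and Lcn2, up to 5 genes with the largest absolute log2 change past the threshold per pathway list, and the 3 most alike genes per chemokine with a mean of at least 10 CPM. The most alike genes of Cxcl12 and Cxcl14 are not reported here. Spots under 500 UMIs were left out of marker-rich comparisons. Intervals are 95% exact intervals, and they and the floor of 3 counts cover counting error only. On simulated counts of the whole-section comparison (15305 genes), edgeR recovered 91 of 100 genes changed 2-fold and 99 of 100 changed 4-fold, with 12 false calls. For the cortex comparison (14172 genes) it recovered 90 and 100 of 100, with 15 false calls. In each simulation only 200 genes were changed, as many up as down, and none with a low expected count. Apart from these changes a gene had the same expected share of UMIs in every section or zone. The figures therefore do not cover data with many changed genes or the low normal counts of some chemokines. Alternatives were DESeq2 1.42.0, library-size scaling, no filter, other zone rules, removal of mitochondrial and hemoglobin genes, leaving out each section, the replicate number as a block and thinning to 2000 UMIs. A fit on cortex and outer stripe spots only, a fit with inner stripe and inner medulla merged, and the marker-rich spots within the outer stripe were added after seeing the data.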

Additional observations from a re-analysis of the deposited data

Results flagged for a closer look

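The change of 3 chemokines in the outer stripe differed from their change in cortex by a test of the difference itself, by 2.47 for Cxcl1, 2.44 for Ccl2 and 1.09 for Cxcl14 on the log2 scale. In the inner medulla the change differed from that in cortex by -2.98 for Cxcl1 and by 1.88 for Cxcl14. With 2 sections a group, no section could be tested as standing apart from its group.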

How the results depend on the processing

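When each of the 8 whole-section changes was recomputed under each alternative, 77 values kept the direction and the side of the threshold and 3 did not, all of Cxcl16, at 0.29 with DESeq2 and at 0.34 without ischemic section 1 and without ischemic section 2 (0.29 to 0.34 with each section left out in turn). Within zones 480 values kept both, 15 lost the call, 14 gained one and 3 turned direction, none of them called: Cxcl16 in pelvis, at 0.02 with library sizes alone and -0.23 to 0.05 with 1 section left out, and Ccl2 in pelvis, at -0.10 to 2.49 with 1 section left out, where the turned values were those without ischemic section 1. With zones from the spot alone, which left 28.6% and 28.7% of the pelvis spots of the ischemic sections in that zone, 1 chemokine was higher in pelvis, and 957 genes were higher and 1268 lower. With library sizes alone the genes called lower were 2829 in whole sections, 1677 in cortex, 2354 in inner stripe and 2477 in outer stripe, and the share of called genes that were higher went from 50.4% to 67.6% in cortex, 39.5% to 50.6% in inner medulla, 46.1% to 66.7% in inner stripe and 48.2% to 69.3% in outer stripe. With 1 section left out, the chemokines called higher were 2 to 4 in cortex and 2 to 5 in pelvis, the genes called higher 1312 to 3498 in cortex, 1020 to 1933 in inner medulla, 1822 to 3594 in inner stripe and 538 to 1459 in pelvis, and those called lower 1193 to 3591, 1525 to 2831, 2374 to 3917 and 562 to 2258. With 1 section of a group left, that section is assumed to vary like the other groups.

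Of the differences from cortex, 262 values kept the direction and the side of the threshold, 10 lost the call, 14 gained one and 18 turned direction, and the cause was not tested. Thinning moved 31 of the 32 shares of spots with a chemokine by more than their interval. For outer stripe, no filter gave 2.35 for Ccl7, zones from the spot alone 0.95 for Cxcl14 and 0.59 for Cxcl16, DESeq2 0.43 and removal of mitochondrial and hemoglobin genes 0.49 for Cxcl16. Genes called higher were 1088 without a filter and 939 without boundary spots, and genes called lower 579 with library sizes alone. With 1 section left out, the values ran from 2.08 to 2.97 for Cxcl1, 1.57 to 3.23 for Ccl2, 1.33 to 2.92 for Ccl7, 0.96 to 1.22 for Cxcl14 and 0.36 to 0.43 for Cxcl16, with 0 to 4 chemokines and 8 to 1349 genes higher and 4 to 1904 genes lower. For inner medulla, zones from the spot alone gave -1.91 for Cxcl1, 2.48 for Ccl2 and 0.20 for Cxcl16, with 2 chemokines higher and 0 lower, no filter 2.51 for Ccl2 and 0.07 for Cxcl16, with 2 chemokines and 437 genes higher, DESeq2 0.03 for Cxcl16, and library sizes alone 129 genes higher. With 1 section left out, the values ran from -3.19 to 3.57 for Cxcl2, 1.45 to 3.90 for Ccl2, -2.14 to 1.41 for Ccl7, 0.45 to 0.74 for Cxcl12 and 1.65 to 2.12 for Cxcl14, with 0 to 3 chemokines and 21 to 510 genes higher and 81 to 1588 genes lower. For inner stripe, the turned values were -1.46 for Cxcl1 and -0.37 for Cxcl2 with the zones merged, -0.19, -0.98 and -0.37 for Cxcl2 with DESeq2, zones from the spot alone and without boundary spots, and 0.09, 0.15 and 0.18 for Ccl7 with library sizes alone, zones from the spot alone and zones without Cryab. No filter gave 701 genes higher. With 1 section left out, the values ran from -0.12 to 0.81 for Cxcl1, -2.39 to 3.60 for Cxcl2, -1.31 to 0.92 for Ccl7 and 0.45 to 0.74 for Cxcl12, with 0 to 1 chemokines and 34 to 891 genes higher and 155 to 2125 genes lower.

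Normal and ischemic sections share replicate numbers but no stated mouse, and over 12661 genes the deviations of same-numbered sections correlated at 0.205. With the replicate number as a block, 5197 genes were higher and 4892 lower in whole sections, and 7 chemokines were higher and 1 lower as without it. The only chemokine call it changed was Cxcl12 in inner stripe minus cortex, at 0.59, so that 1 chemokine passed there. Restricting whole sections to cortex and outer stripe spots, added after seeing the data, kept all 8 calls, with Cxcl1 at 4.90 and Cxcl12 at -1.87. Depth limits Cxcl2 and Ccl7 most, since normal zones held 0 to 2 UMIs of Cxcl2 and 2 to 13 of Ccl7.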
